A study of Mus musculus with 40 samples.

Results

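The genes described here are 10 members of the epidermal growth factor (EGF) family: the ligands Egf, Hbegf, Tgfa, Areg, Btc and Nrg1, and the receptors Egfr, Erbb2, Erbb3 and Erbb4. They are defined by name and not by a threshold on a measured value, and all 10 were found among the 28467 genes of the bulk table and among the 32285 genes of the nucleus table. The study compared the right kidney of male C57BL/6 mice aged 8-12 weeks after removal of the left kidney (unilateral nephrectomy, UNx) with the right kidney after a sham operation. Cross-sections of whole kidney were taken 24, 48 and 72 h after surgery for bulk RNA sequencing, with 6 sham and 6 UNx mice at each time. Nuclei were isolated at 24 h only, from 2 sham and 2 UNx mice. Each library is a separate mouse by its labelled mouse number, and the labels name no transgene and no drug.

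EGF family ligands are made as membrane-anchored precursors that proteases cut to release the active peptide. Egfr binds Egf, Tgfa, Areg, Btc and Hbegf. Erbb4 binds neuregulins such as Nrg1 as well as Btc and Hbegf, Erbb3 binds neuregulins but has a weak kinase, and Erbb2 has no known ligand of its own and acts as the partner of the other receptors. Ligand binding pairs the receptors and switches on the ERK and PI3K-AKT cascades, which drive growth and survival. In the kidney, the thick ascending limb and the distal convoluted tubule are the known main sources of Egf, and the proximal tubule is a known site of Egfr.

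The promoters of the ligand and of 2 of the receptors whose bulk level changed are shown because these genes carry the bulk results. They are the 250 bases before the transcription start from RefSeq on GRCm38.p6, written 5′ to 3′ on the strand of the gene, in lower case with any motif found in capitals. The windows were at chr3:129755323-129755572 on the minus strand for Egf, at chr11:98412234-98412483 on the plus strand for Erbb2, and at chr1:69108060-69108309 on the minus strand for Erbb4. The start used is held by 3 of 9 transcripts of Egf, 2 of 3 of Erbb2 and 1 of 5 of Erbb4. A second Egf window, at chr3:129725087-129725336, whose start 0 of the 9 transcripts hold, is not shown.
Egf: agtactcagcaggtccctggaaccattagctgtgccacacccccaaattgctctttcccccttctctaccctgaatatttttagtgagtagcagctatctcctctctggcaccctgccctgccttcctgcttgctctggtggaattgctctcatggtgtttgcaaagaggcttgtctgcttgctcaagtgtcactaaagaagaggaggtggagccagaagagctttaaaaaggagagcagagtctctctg
Erbb2: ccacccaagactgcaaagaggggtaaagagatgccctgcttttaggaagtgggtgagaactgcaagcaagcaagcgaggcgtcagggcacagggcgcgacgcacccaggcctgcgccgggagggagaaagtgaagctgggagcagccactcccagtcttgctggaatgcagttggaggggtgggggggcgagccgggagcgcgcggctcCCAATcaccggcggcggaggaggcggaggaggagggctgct
Erbb4: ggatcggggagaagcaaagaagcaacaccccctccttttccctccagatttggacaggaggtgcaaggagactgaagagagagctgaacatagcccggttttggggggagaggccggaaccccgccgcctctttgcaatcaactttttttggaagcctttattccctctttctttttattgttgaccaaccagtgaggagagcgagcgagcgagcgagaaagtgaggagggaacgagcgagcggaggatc
The Erbb2 window had 66.0% G and C, the Erbb4 window 54.0% and the Egf window 50.4%, against a median of 52.4% over the 32851 windows of the table. A CCAAT box (CCAAT, searched on both strands) was found in the Erbb2 window and in neither of the others, and 33.8% of all windows hold it. None of the 3 windows held the letters TATAAA, which 12.4% of windows hold, or GGGCGG, which 32.7% hold. These are descriptions of the letters in the windows.

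On GRCm38, the build of the nucleus data, Egf spans chr3:129677565-129755316, Egfr chr11:16752203-16918158, Erbb2 chr11:98412470-98437716, Erbb3 chr10:128567523-128589652 and Erbb4 chr1:68032186-69108059. Nrg1 spans chr8:31814551-32884029, Tgfa chr6:86195223-86275719, Areg chr5:91139599-91148432 and Btc chr5:91357261-91402994. The bulk reads were quantified on GRCm39 per the submitters' processing notes, so these coordinates do not apply to that table.

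The bulk libraries held 14.87 to 24.11 M estimated counts each, where M is 1000000. The 24 h libraries were labelled batch 1 and the 48 and 72 h libraries batch 2, so a level at 24 h and a level at a later time differ in batch as well as in time. Every sham-UNx comparison in bulk is within 1 time and 1 labelled batch. Libraries also differed along a profile of 271 pseudogenes. The profile is the difference between the mean of the 24 h shams and that of the 48 and 72 h shams. It was scaled so that the 48 and 72 h shams averaged 0 and the 24 h shams 1. The shams set the profile and the UNx libraries did not, so part of a gap between them on it may be built in. The size of that part was not tested. At 24 h the shams scored 0.958 to 1.04 and the UNx libraries 0.674 to 0.884. At 48 h the shams scored -0.0419 to 0.0618, UNx replicate 6 scored 0.00628 and UNx replicates 1 to 5 scored 0.640 to 0.717. The share of counts from mitochondrially encoded genes separated the same 5 libraries, at 25.8% to 26.4%, from UNx replicate 6 at 15.15%. The 24 h libraries held 21.5% to 26.7%. All 72 h libraries lay within -0.0548 to 0.0947 on the profile. On both measures the 5 libraries lay nearer the 24 h libraries, labelled batch 1, than the rest of their own labelled batch. The 5 libraries stand apart from the rest of their batch and are all UNx, so at 48 h what sets them apart and the operation cannot be told apart, and the 48 h results of the members and of the named pathway genes are given with and without them.

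In sham kidneys, Egf was by far the most abundant member. Per kilobase of exon, Egf averaged 154 ± 21.7 CPM (counts per 1000000 counts of the library) per kb over the 18 sham libraries (SD). Among the receptors, Erbb3 followed at 18.9 ± 4.22 CPM per kb, then Erbb2 at 11.1 ± 1.77, Egfr at 5.86 ± 1.01 and Erbb4 at 2.25 ± 0.481 CPM per kb. The remaining ligands were low, with Hbegf at 2.69 ± 0.406, Btc at 1.46 ± 0.286, Nrg1 at 1.20 ± 0.353 and Tgfa at 0.914 ± 0.216 CPM per kb. Areg, a ligand induced in injured epithelia, had between 0 and 0.0720 CPM in any library and was too low to test. Hbegf and Erbb4, Btc and Nrg1, and Nrg1 and Tgfa are neighbours in this order that lay within 1 SD of each other. The exon length was that of all exons of the gene merged, from GENCODE M21 on GRCm38, and the order depends on it. In mean CPM without that division, Egfr (66.4) was above Erbb2 (58.1), and Erbb4 (27.8) was above Hbegf (13.0).

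After nephrectomy, the members that changed in bulk tissue fell. At 24 h Erbb2 and Erbb3 were lower, at 48 h Egf and Erbb4 were lower, and at 72 h no member passed the test. No ligand or receptor of the family rose at any time in this test. Of the 9 members tested at each time, 2 were called at 24 h, 2 at 48 h and 0 at 72 h (edgeR quasi-likelihood test, Benjamini-Hochberg adjusted p under 0.05 over all genes). Over all genes tested, 27.3% were called at 24 h, 32.9% at 48 h and 1.71% at 72 h (1.21% higher), so the share of members called at 24 and 48 h was no higher than that of all genes. By direction, 13.1% of all genes were lower and 14.2% higher at 24 h, and 16% were lower and 16.9% higher at 48 h. With so few members tested, calls in 1 direction only are not read as a trait of the family. The median log2 fold change of the 9 members was -0.20 at 24 h, -0.29 at 48 h and -0.05 at 72 h, beside medians of 0.01, -0.04 and -0.00 over all genes tested. At an unadjusted p under 0.05 there were 4, 5 and 2 members at 24, 48 and 72 h, against 39.2%, 44.5% and 17.3% of all genes. In bulk tissue, fewer cells of a type and less RNA per cell cannot be told apart.

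**Figure D1:**
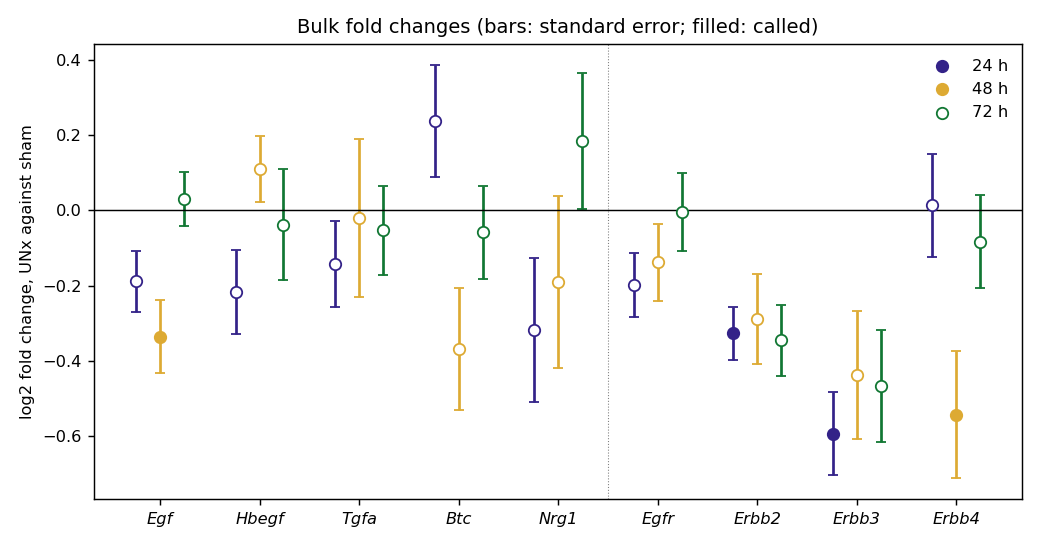
Log2 fold change of UNx against sham in bulk tissue for the 9 tested members, with a bar of 1 standard error on either side, in the colours of 24, 48 and 72 h; filled points passed the test and open points did not. Ligands are on the left of the dotted line and receptors on the right; the filled points are Erbb2 and Erbb3 at 24 h and Egf and Erbb4 at 48 h, all below 0, and Erbb2 and Erbb3 are below 0 at all 3 times.

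Erbb3, the neuregulin receptor with a weak kinase, had the lowest log2 fold change of the family at 24 h. The 24 h shams held 96.5, 107 and 161 CPM (lowest, median and highest) and the UNx kidneys 65.9, 77.5 and 88.2 CPM. The 2 groups did not overlap, although 1 sham library, replicate 4, lay well above the other 5. The log2 fold change was -0.59 (SE 0.11, edgeR adjusted p = 0.00142), and it lay between -0.64 and -0.48, and was called, when each of the 12 libraries was left out in turn.

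Erbb2, the receptor without a ligand of its own, fell in the same kidneys. Sham kidneys at 24 h held 46.5, 49.5 and 55.8 CPM and UNx kidneys 33.4, 41.0 and 43.0 CPM. Again no UNx library reached the lowest sham. The log2 fold change was -0.33 (SE 0.07, edgeR adjusted p = 0.00352). Groups that did not overlap, with UNx lower, were found for 4.47% of all genes at 24 h, 4.64% at 48 h and 0.742% at 72 h, and for no member at the 2 later times. The 24 h shams and UNx libraries also did not overlap on the pseudogene profile, which was set from the shams alone. With the profile score as a covariate the values were -0.47 for Erbb2 (edgeR adjusted p = 0.461) and -0.42 for Erbb3 (edgeR adjusted p = 0.79), and only 0.567% of all genes were called.

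At the later times both receptors were again lower on average, with wider spread. At 48 h Erbb3 held 75.7, 101 and 136 CPM in shams and 56.2, 79.2 and 92.1 CPM in UNx kidneys (log2 fold change -0.44, SE 0.17, edgeR adjusted p = 0.0602). At 72 h it held 94.1, 123 and 162 CPM in shams and 64.2, 92.4 and 112 CPM in UNx kidneys (log2 fold change -0.47, SE 0.15, edgeR adjusted p = 0.126). The groups overlapped at both times. Among the 48 h shams, replicates 1 to 3 held 75.7 to 85.1 CPM of Erbb3 and replicates 4 to 6 held 117.5 to 136.1 CPM. For Erbb2 the same replicates held 48.1 to 52.6 and 59.9 to 68.4 CPM. For both genes the lower set lay within the UNx range. With UNx replicate 6 alone at 48 h, Erbb3 stood at -0.23 (edgeR adjusted p = 0.784) and Erbb2 at -0.49 (edgeR adjusted p = 0.301). At 48 h Erbb3 was called without sham replicate 2 or sham replicate 3 (-0.51 in both, edgeR adjusted p = 0.0399 and 0.0375), and Erbb2 without UNx replicate 1 (-0.35, edgeR adjusted p = 0.0424). Erbb2 at 48 h held 48.1, 56.2 and 68.4 CPM in shams and 35.6, 46.1 and 57.1 CPM in UNx kidneys (log2 fold change -0.29, SE 0.12, edgeR adjusted p = 0.0748). At 72 h it held 61.6, 65.2 and 79.5 CPM in shams and 43.7, 52.8 and 64.0 CPM in UNx kidneys (log2 fold change -0.35, SE 0.09, edgeR adjusted p = 0.0822). All 6 UNx libraries of 72 h lay below the sham mean for each of these 2 genes, and only part of the ranges overlapped.

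These later values sit near the threshold of the test. At 72 h, DESeq2's Wald test called both, Erbb2 at -0.34 (adjusted p = 0.0203) and Erbb3 at -0.47 (adjusted p = 0.0435), where it called 4.58% of all genes. limma voom with quality weights also called both at 72 h, at -0.40 (adjusted p = 0.0196) and -0.56 (adjusted p = 0.0434). Without UNx replicate 6, edgeR called Erbb2 at 72 h (-0.41, adjusted p = 0.0194). On the pseudogene profile, which was set from the shams alone, the 72 h shams scored -0.0548 to 0.0484. Of the 6 UNx libraries, 3 lay above every sham, at 0.0882 to 0.0947. With the profile score as a covariate the 72 h values were -0.22 for Erbb2 (edgeR adjusted p = 0.45) and -0.31 for Erbb3 (edgeR adjusted p = 0.57). Erbb2 and Erbb3 were both below sham with an unadjusted p under 0.05 at each of the 3 times, each time against its own shams, as were 169 of the 13874 genes tested at all times (1.22%). The effect on Erbb2 was not called as different between any 2 times, with differences of 0.07 between 24 and 48 h (edgeR adjusted p = 0.751) and -0.07 between 48 and 72 h (edgeR adjusted p = 0.803). For Erbb3 the difference between 48 and 72 h was -0.04 (edgeR adjusted p = 0.933). Between 24 and 72 h no member was called, against 4.15% of all genes.

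**Figure D2:**
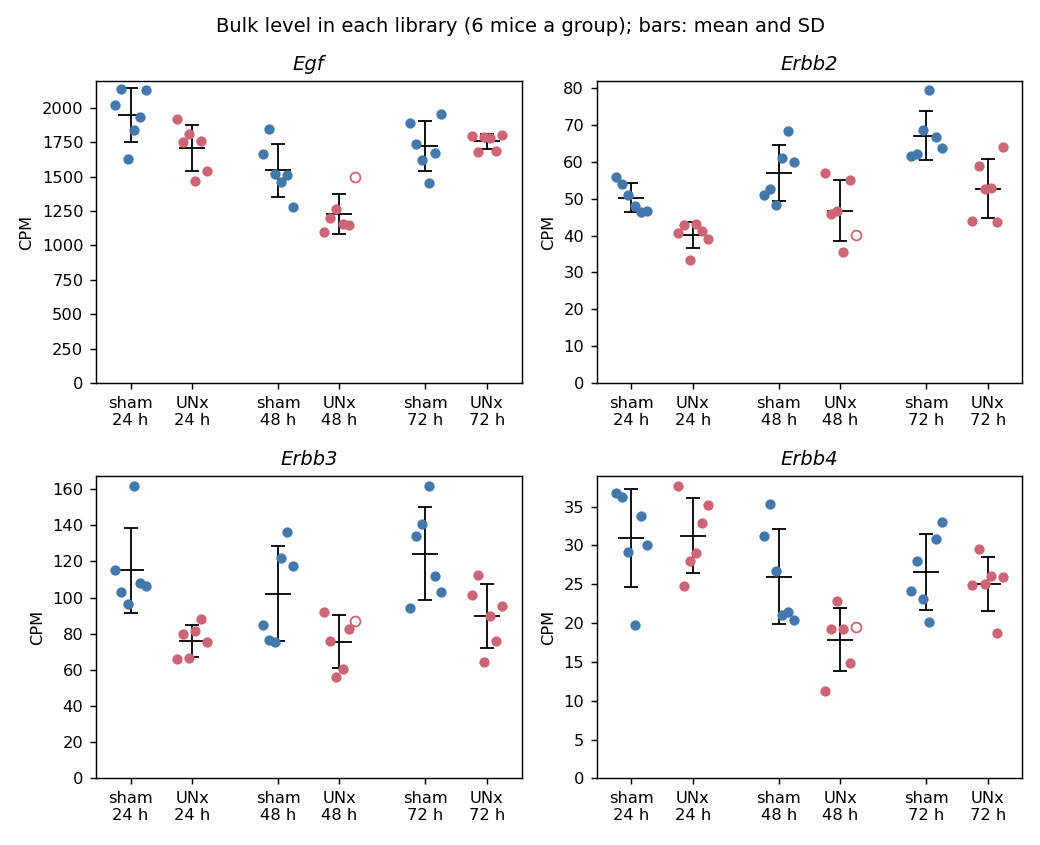
CPM of Egf, Erbb2, Erbb3 and Erbb4 in each bulk library, by group and time (1 point per mouse, 6 mice a group, horizontal bars at the mean and whiskers of 1 SD); the open circle is the 48 h UNx replicate 6. Erbb2 and Erbb3 separate sham from UNx fully at 24 h, Egf is lower in UNx at 48 h with the open circle at 1495 CPM among the shams, and Erbb4 is lower in UNx at 48 h with ranges that overlap.

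Egf, the most abundant ligand, was lower at 48 h. Shams held 1282, 1515 and 1845 CPM and UNx kidneys 1099, 1179 and 1495 CPM, a log2 fold change of -0.34 (SE 0.10, edgeR adjusted p = 0.0175). The highest UNx value was that of replicate 6, which lay among the shams, and the other 5 UNx libraries were all below the lowest sham. With only replicate 6 kept on the UNx side, the log2 fold change was -0.04 (edgeR adjusted p = 0.927). In that fit 1 UNx library stands for the group and is taken to vary like the shams. The 5 libraries with low Egf are the 5 that stand apart on the pseudogene profile, and with the profile score as a covariate, where 0% of all genes were called, Egf stood at -0.09 (edgeR adjusted p = 0.788).

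The Egf change differed between times. At 24 h shams held 1629, 1973 and 2139 CPM and UNx kidneys 1471, 1756 and 1919 CPM (log2 fold change -0.19, SE 0.08, edgeR adjusted p = 0.0986). At 72 h shams held 1456, 1706 and 1955 CPM and UNx kidneys 1676, 1783 and 1803 CPM (log2 fold change 0.03, edgeR adjusted p = 0.885). The UNx values of 72 h lay within the sham range. The effect at 72 h was higher than that at 48 h by 0.36 (SE 0.12, edgeR adjusted p = 0.0404), where 14.6% of all genes showed a difference. That difference was not called without UNx replicates 1 to 5 of 48 h.

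Erbb4, a receptor of the thick ascending limb in these nuclei, was called at 48 h only. Shams of 48 h held 20.4, 24.0 and 35.3 CPM and UNx kidneys 11.3, 19.3 and 22.8 CPM, and the ranges overlapped. Sham replicates 1 to 3 held 26.7 to 35.3 CPM, and sham replicates 4 to 6 held 20.4 to 21.4 CPM, within the UNx range. That is the reverse of the order of these sham sets for Erbb2 and Erbb3. The log2 fold change was -0.54 (SE 0.17, edgeR adjusted p = 0.0249). It missed the threshold without sham replicate 1 (-0.49, adjusted p = 0.0522), sham replicate 2 (-0.44, adjusted p = 0.0592) or UNx replicate 5 (-0.50, adjusted p = 0.0565). UNx replicate 6 held 19.6 CPM, below every sham, and gave -0.41 when it stood alone (edgeR adjusted p = 0.558). With the profile score as a covariate the value was -0.51 (edgeR adjusted p = 0.461). At 24 and 72 h the values were 0.01 and -0.08, with adjusted p = 0.953 and 0.793 (edgeR).

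Markers of the thick ascending limb, where both genes are most abundant, were not uniformly lower at 48 h. Umod, which encodes uromodulin, was at -0.29 (edgeR adjusted p = 0.0868), and Slc12a1, the Na-K-Cl cotransporter, was also at -0.29 (edgeR adjusted p = 0.301). Cldn16, a tight junction protein, rose by 0.44 (edgeR adjusted p = 0.00742). With UNx replicate 6 alone, a setting chosen for these markers after seeing the data, the values were -0.08 for Umod, -0.29 for Slc12a1 and 0.50 for Cldn16, none of them called. Of the 5 markers of that segment 1 was called, and their summed level was 3540 to 5840 CPM in shams and 2730 to 4420 CPM in UNx kidneys. The part of segment content in the Egf and Erbb4 values was not tested.

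The remaining ligands and Egfr passed the test at no time. Egfr, the receptor of Egf, held 60.9 to 96.8 CPM in 24 h shams and 57.9 to 65.7 CPM in UNx kidneys (log2 fold change -0.20, edgeR adjusted p = 0.0963). Its values at 48 and 72 h were -0.14 and -0.00. Hbegf, a ligand of Egfr and Erbb4, had log2 fold changes of -0.22, 0.11 and -0.04 at 24, 48 and 72 h. Tgfa, another Egfr ligand, stood at -0.14, -0.02 and -0.05, and Nrg1, the neuregulin, at -0.32, -0.19 and 0.18. Leaving out sham replicate 3 at 24 h brought Egf (-0.24, edgeR adjusted p = 0.034) and Egfr (-0.25, edgeR adjusted p = 0.0379) past the threshold, and leaving out UNx replicate 4 did so for Nrg1 (-0.49, edgeR adjusted p = 0.0414).

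Btc, betacellulin, was the other member whose effect differed between times. It held 5.96, 7.23 and 8.43 CPM in 24 h shams and 6.40, 7.67 and 11.6 CPM in 24 h UNx kidneys, but 5.02, 7.33 and 8.79 CPM in 48 h shams and 4.35, 5.30 and 7.54 CPM in 48 h UNx kidneys. The ranges overlapped at both times, and neither time was called on its own (0.24 with edgeR adjusted p = 0.252, and -0.37 with edgeR adjusted p = 0.0938), although 48 h was called without sham replicate 4 (-0.45, edgeR adjusted p = 0.0417) or UNx replicate 2 (-0.48, edgeR adjusted p = 0.0337). The difference between them was -0.58 (SE 0.21, edgeR adjusted p = 0.0333), where 37% of all genes differed. It was not called with the profile score as a covariate or without UNx replicates 1 to 5 of 48 h, where the difference was -0.64 (edgeR adjusted p = 0.334) and Btc at 48 h stood at -0.41 (edgeR adjusted p = 0.572).

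Around the receptors, 60 further genes of the pathway were followed in 7 lists, of which 55 were tested. At 24 h 9 of them rose and 5 fell, at 48 h 7 rose and 10 fell, and at 72 h 1 fell. Called shares of all genes were 14.2% higher and 13.1% lower at 24 h, 16.9% higher and 16% lower at 48 h, and 0.502% lower at 72 h, so the pathway as a whole did not stand out from the background. With the profile score as a covariate 1, 0 and 0 were called, and with 48 h UNx replicates 1 to 5 left out, an alternative chosen after seeing the data, 0 were called at 48 h. The genes below are, from each list and time, the called gene of lowest p in each direction.

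Among the genes that release ligands, Timp3, an inhibitor of the shedding proteases, fell at 24 h (-0.30, edgeR adjusted p = 0.0119), and it was the 1 called of 7. At 48 h Adam17, the main sheddase of several EGF ligands, fell by 0.20 on the log2 scale (edgeR adjusted p = 0.0348), and Rhbdf1, a partner of Adam17, rose (0.24, edgeR adjusted p = 0.0408). The Adam17 call held under 2 of 9 other settings. Among 9 inhibitors and turnover factors of the receptors none was called at 24 h, and 1 rose and 4 fell at 48 h. Errfi1, a feedback inhibitor of the receptor kinases, was the one that rose (0.37, edgeR adjusted p = 0.00946), and Socs4 had the lowest p of those that fell (-0.53, edgeR adjusted p = 0.00137).

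Downstream, 5 of 15 adaptor and ERK cascade genes rose and 1 fell at 24 h. Map2k2, which encodes MEK2, rose (0.39, edgeR adjusted p = 0.000801), and Gab1, a docking protein of the receptors, fell (-0.55, edgeR adjusted p = 0.000587). At 48 h 2 rose and 2 fell, led by Hras (0.43, edgeR adjusted p = 0.000532) and Nras (-0.18, edgeR adjusted p = 0.0318), whose call held under 3 of 9 other settings. Of 7 PI3K and AKT genes, Akt1 rose (0.27, edgeR adjusted p = 0.00157) and Pik3r2 fell (-0.25, edgeR adjusted p = 0.0101) at 24 h. At 48 h Pik3r2, a regulatory subunit of PI3K, was the 1 that rose (0.30, edgeR adjusted p = 0.0107), the opposite sign to 24 h. Pik3ca, the catalytic subunit, led the 2 that fell at 48 h (-0.36, edgeR adjusted p = 0.0033) and was the only pathway gene called at 72 h (-0.29, edgeR adjusted p = 0.0432). That 72 h call was lost with no filter on low counts (edgeR adjusted p = 0.0568). It was also lost with the replicate number as a block (edgeR adjusted p = 0.119).

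Genes that respond to ERK changed in both directions at 24 h. Of the 8 feedback genes, Dusp6, an ERK phosphatase, rose at 24 h (0.37, edgeR adjusted p = 0.0404) while Spred2 fell (-0.26, edgeR adjusted p = 0.0208), and Spred1 fell at 48 h (-0.55, edgeR adjusted p = 0.00135). Of 8 tested transcripts that ERK induces, 2 rose and 1 fell at 24 h. Ier3, an immediate early gene, rose (0.66, edgeR adjusted p = 0.0131) and Ccnd1, cyclin D1, fell (-0.44, edgeR adjusted p = 0.0418). At 48 h 2 rose and none fell, with Myc at 0.72 (edgeR adjusted p = 0.0263). At 72 h no gene of either list was called. The median log2 fold change was then -0.20 for the feedback genes and -0.25 for the transcripts, beside a median of -0.00 over all genes. Whether either list differed from all genes was not tested.

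With UNx replicates 1 to 5 left out, the 48 h values of the named pathway genes lay closer to 0. Those that had fallen stood at -0.02 for Adam17, 0.01 for Nras, -0.12 for Spred1, -0.26 for Pik3ca and -0.34 for Socs4. Those that had risen stood at 0.03 for Pik3r2, 0.05 for Rhbdf1, 0.13 for Myc, 0.27 for Errfi1 and 0.32 for Hras. Some calls were also lost under other settings. With all 36 libraries in 1 fit, Timp3, Dusp6 and Ier3 were not called at 24 h (edgeR adjusted p = 0.0561, 0.0531 and 0.0627). Ccnd1 at 24 h was not called by DESeq2's Wald test (adjusted p = 0.0553). At 48 h Rhbdf1 was not called with no filter on low counts (edgeR adjusted p = 0.07), nor Myc with the replicate number as a block (edgeR adjusted p = 0.0558).

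The nuclei placed the members in cell classes. As deposited, 5342 and 2641 nuclei came from the sham mice and 5151 and 3366 from the UNx mice, with 35.45 to 49.56 M unique molecular identifiers (UMI) per mouse. Of 16500 nuclei, 18 barcodes occurred in 2 samples. The classes carry the authors' abbreviations, and 23 of 30 had at least 10 nuclei in each mouse. Sham and UNx mouse 1 were labelled batch 3, and sham and UNx mouse 2 batch 4. Values below are UMI per M UMI of the class, given as sham and UNx of batch 3, then sham and UNx of batch 4. Nuclear levels of different genes depend on intron length and are compared between classes only, never between genes. Free RNA in droplet data can give UMI in cells that do not express a gene. The endothelial class EC1, where Egf is not known to be made, held 59.0 and 50.6 UMI per M of it in batch 3 and 1085 and 1311 in batch 4.

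Egf was highest in the class CTAL1, with 13360 and 13090 UMI per M in batch 3 and 9491 and 9935 in batch 4. CTAL2 followed (10550, 9671, 8908 and 6551) with a range that overlapped that of CTAL1. MTAL (4267, 2441, 2194 and 1750) and DCT (2838, 1821, 2791 and 1588) came next, below the range of CTAL2 and overlapping each other. The CTAL and MTAL classes carried Umod and Slc12a1, and DCT carried Slc12a3, the thiazide-sensitive cotransporter, so their names fit their markers. PTS1 carried Slc34a1 and Slc5a2, PTS3 carried Slc7a13, and EC1 carried Pecam1 and Emcn. Every other class had a lower mean than EC1. Erbb4 was highest in the same limb, with means of 12050 UMI per M in CTAL2, 10470 in CTAL1, 9475 in MD and 9026 in MTAL, which overlapped, and 1759 in DCT. EC1 held 32.9 and 99.1 UMI per M of Erbb4 in batch 3 and 1367 and 1427 in batch 4.

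Egfr was spread over many classes. Its highest mean was 856 UMI per M in MPC, a class with Aqp2, followed by 798 in DTL3-ATL, 557 in Uro, 538 in PEC, 516 in DTL1 and 479 in PTS1, each overlapping the next, and it was 109 in EC1. Btc was highest in CPC, a second class with Aqp2. CPC held 352, 283, 185 and 275 UMI per M, 7.07 times the mean of the next class, MD, with no overlap. These means are over all 4 mice. Nrg1 and Hbegf differed between sham and UNx in some classes, so their order is given in the 2 sham mice. There Nrg1 was highest in PTS3 (981 and 469 UMI per M) and PTS2 (859 and 414), then PEC (563 and 491), with ranges that overlapped. Hbegf was highest in PTS1 (42.8 and 31.2 UMI per M) and PTS2 (32.2 and 35.3), also overlapping. Tgfa was highest in Uro at 76.1 UMI per M over 4 mice. The mean sham level of Erbb3 was 57.7 to 59.6 UMI per M in MPC, PEC, DTL3-ATL and PTS3, and the means of Erbb2 over 4 mice spanned the smallest ratio of the 4 receptors, from 35.8 in Uro to 10.8 in Per. Areg had 20 UMI in all 4 mice together.

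**Figure D3:**
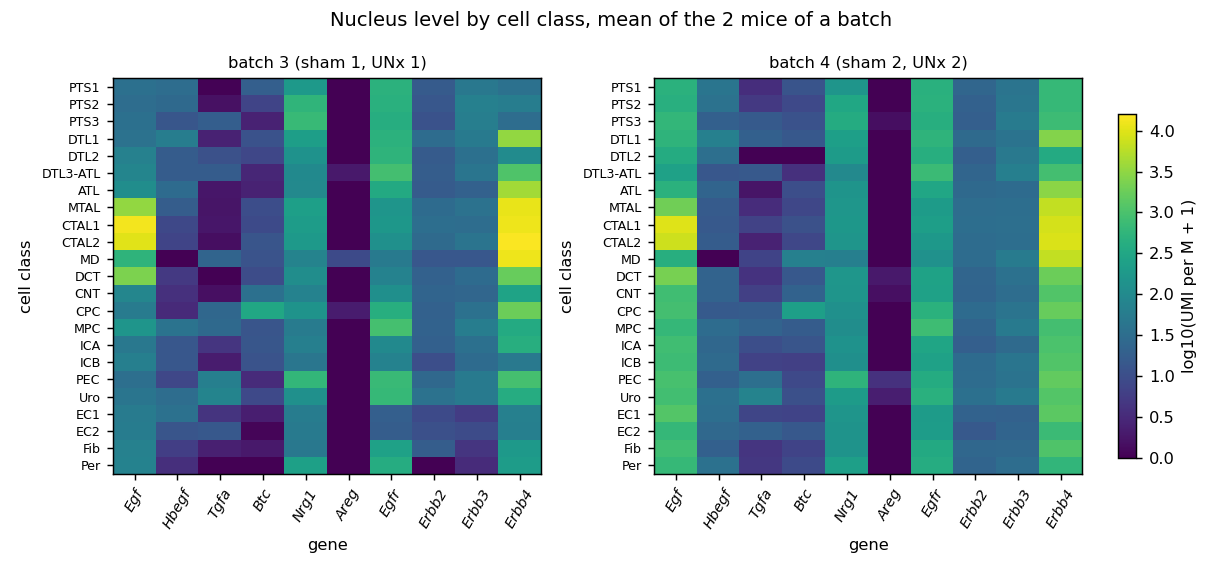
Mean level of each member in 23 cell classes on a log10(UMI per M + 1) colour scale, for the 2 mice of batch 3 on the left and of batch 4 on the right. Egf is brightest in CTAL1 and CTAL2, Erbb4 in the CTAL, MTAL and MD classes and Btc in CPC in both batches, and the low Egf background of most other classes is brighter in batch 4.

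Across the 23 classes, the genes whose level followed that of Egf most closely were 6330410L21Rik (Pearson r = 0.95), Gm42697 (0.948), Umod (0.934), Gm47708 (0.932) and Dusp15 (0.928), among 7563 genes. For Egfr they were Egfros (0.92), Syde2 (0.853), Ttc8 (0.849), Ubap2 (0.819) and Chd9 (0.814). The 23 points share the same 4 libraries, and Egfros is named for its place opposite Egfr, so reads of the pair may not be separable. These correlations are descriptions.

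Between sham and UNx nuclei, none of the 163 member tests in 23 classes was called without a batch term (edgeR, adjusted p under 0.05), with 5 at an unadjusted p under 0.05. No gene was called in any class, 0 of 219721 tests. With 2 mice against 2, an exact permutation test cannot go below 0.333. Because the 2 mice of a number share a labelled batch, the fit with batch as a block is given beside it; it has 1 residual degree of freedom before information is shared across genes. With the block 8 member tests were called, 7 lower and 1 higher, against 0.726% of all tests. Erbb2, Erbb3, Erbb4, Egfr, Tgfa and Btc were called in no class by either fit, and summed over all nuclei no member was called by either fit, where the block called 1.04% of all genes.

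Nrg1 was lower after nephrectomy in the proximal tubule classes. In PTS2 it held 859 and 276 UMI per M in batch 3 and 414 and 212 in batch 4. In PTS3 it held 981 and 351, then 469 and 298, and in PTS1 269 and 92.0, then 186 and 123. Both UNx mice lay below both sham mice in all 3 classes, as they did for 13% of all genes tested in PTS2, 11% in PTS3 and 14.2% in PTS1. The log2 fold change with the block was -1.29 in PTS2 (SE 0.19, edgeR adjusted p = 0.0041), -1.07 in PTS3 (edgeR adjusted p = 0.027) and -1.02 in PTS1 (edgeR adjusted p = 0.0517), and none of the 3 was called without it. The block called 3.03% of all genes in PTS2, 2.47% in PTS3 and 1.63% in PTS1. These 3 classes were singled out after their values were seen.

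The 3 classes are merged ones. A second form of the authors' annotation keeps clusters named UNx PTS1, UNx PTS2 and UNx PTS3 apart. They held 98.2% and 85.8% of the PTS1 nuclei of the UNx mice, 100.0% and 99.3% of the PTS2 nuclei and 100.0% and 99.3% of the PTS3 nuclei, but only 0.303% to 3.32% of those of the sham mice. Most sham and UNx nuclei of these classes thus lie in different clusters of that form, so the Nrg1 difference of the merged classes is mainly taken between those clusters. Within UNx PTS1, which held 14 and 16 sham nuclei, Nrg1 was at 173 in sham and 92.4 in UNx in batch 3, and at 110 and 121 UMI per M in batch 4. Those sham levels rest on 21.3 and 18.4 UMI, and the 2 batches went opposite ways. Within the PTS1 cluster of that form, which held 14 and 61 UNx nuclei, UNx was below sham in both batches. Nrg1 was there at 270 in sham and 61.1 in UNx in batch 3, and at 188 and 131 UMI per M in batch 4. Those UNx levels rest on 8.86 and 157 UMI. PTS2 and PTS3 had too few nuclei of one group in each cluster to compare.

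Other transcripts of those classes were not all level. Lrp2, which encodes megalin, was also lower in both batches, with 2819 and 1596 then 3542 and 2448 UMI per M in PTS2. In PTS1 Lrp2 was 2780 and 1375 then 2907 and 2187. Slc34a1, the phosphate transporter, was 5231 and 5336 then 6483 and 5973 in PTS1. In PTS2 Slc34a1 was 3979 and 4363 then 5547 and 4758, so in both classes it was higher in UNx in batch 3 and lower in batch 4. Slc7a13 in PTS3 was slightly lower in batch 3 (3845 and 3666) and lower in batch 4 (2213 and 1707). The part of the Lrp2 difference in that of Nrg1 was not tested. In PEC, a class where Nrg1 is also high, it held 563 and 620 then 491 and 569 UMI per M, so UNx was above sham in both batches. There the highest nucleus of each mouse supplied 22.0% to 51.5% of the Nrg1 UMI, and without it, a setting chosen after seeing the data, UNx was below sham in both (465 and 394, then 314 and 302). In bulk tissue at 24 h Nrg1 was at -0.32 (edgeR adjusted p = 0.233).

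The Nrg1 test of lowest p was in the class Per, with 414 and 70.6 UMI per M in batch 3 and 418 and 44.8 in batch 4 (log2 fold change -2.85, SE 0.54, edgeR adjusted p = 1.0, and 0.00194 with the block, which called 0.0433% of genes there). Per had the highest level of the stromal marker Pdgfra (391 UMI per M, next Fib at 285) but was below Fib for Pdgfrb (131 against 242), Col1a1 and Col1a2. Per held 95 nuclei in all, and 1 nucleus supplied 72.2% of the Nrg1 UMI of the batch 3 sham and 68.5% of those of the batch 4 sham. Without the highest nucleus of each mouse, a setting chosen after seeing the data, the levels were 120 and 58.1, then 158 and 9.53 UMI per M. EC1 held 47.1 and 66.8, then 133 and 172, a range that overlapped that of Per without that nucleus. A blocked call for Nrg1 in EC2 (-1.03, edgeR adjusted p = 0.0425, 0.383% of genes called) also lay near that level. Without the block the log2 fold change in EC2 was -1.29, and it was 0.05 when sham 2 was left out as well.

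Hbegf, a ligand known to be induced early in injured tubule, was the 1 member that rose in a class. In MPC it held 13.1 and 64.9 UMI per M in batch 3 and 18.3 and 40.5 in batch 4, from 16, 105, 35 and 66 UMI. The log2 fold change was 1.80 without the block (edgeR adjusted p = 1.0) and 1.74 with it (SE 0.33, edgeR adjusted p = 0.0068), where 0.382% of all genes were called. In DTL1, chosen after its values were seen, Hbegf held 30.6 and 86.0 then 26.9 and 107 UMI per M, on 6 to 29 UMI a mouse (1.70 with the block, edgeR adjusted p = 0.168, 0.442% of genes called). Hbegf was above sham in both batches in 9 of the 17 classes where it was tested and below it in both in none. EC1, at 28.5 and 44.1 then 28.2 and 36.8, was among the 9. The batches went opposite ways in PTS1 (42.8 and 19.45, then 31.2 and 52.4) and PTS2 (32.2 and 20.5, then 35.3 and 38.9). The classes share the same 4 mice, and no share over all genes is given for such counts of classes. Bulk Hbegf at 24 h was at -0.22 (edgeR adjusted p = 0.157).

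Egf itself was lower in DCT, from 2838 to 1821 UMI per M in batch 3 and from 2791 to 1588 in batch 4. The log2 fold change was -0.70 by both fits (SE 0.12 and edgeR adjusted p = 0.0176 with the block, 1.0 without it), in a class where the block called 0.481% of genes. Trpm6, a magnesium channel of that segment, was lower in both batches too (2072 and 1134, then 1010 and 518), while Slc12a3 was not (14230 and 15400, then 9670 and 9773). The segment markers Pvalb (43.4 and 21.7, then 22.15 and 15.9) and Klhl3 (2002 and 1740, then 1100 and 1037) were also lower in both. Umod, a transcript of the thick ascending limb, was at 420.5 and 168, then 899 and 936 in DCT, so the level of Egf per level of Umod was 6.75 and 10.9, then 3.11 and 1.70, higher in UNx in batch 3 and lower in batch 4. In the UNx mouse of batch 4, Egf was at 1588 in DCT against 1311 in EC1. In CTAL1, the class with the most Egf, UNx stood slightly below sham in batch 3 and above it in batch 4 (levels above), and its test was not called. Egf was lower in both batches in MTAL and CTAL2 (levels above, neither called) and in 10 of 23 classes in all, and higher in both in 5. The part of the Trpm6, Pvalb, Klhl3 and Umod values in that of Egf was not tested. Blocked calls for Egf in CPC (-1.22, edgeR adjusted p = 0.00439, 0.203% of genes called) and MPC (-1.29, edgeR adjusted p = 0.0467) concern levels near those of EC1. CPC held 67.5 and 42.0 then 1304 and 440 UMI per M, and MPC 265 and 39.0 then 686 and 559, so only the batch 3 sham of MPC lay far above EC1 of its batch. In that sham 1 nucleus supplied 39.6% of the Egf UMI. Without it, a setting chosen after seeing the data, the level was 161.5 UMI per M. In CPC of batch 4, 1 nucleus supplied 18.1% of the Egf UMI in sham and 40.3% in UNx.

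For the 2 receptors that were lower in bulk at 24 h, no nuclear test was called. Erbb3 in PTS3, one of the classes with most of it, held 58.4 and 62.6 UMI per M in batch 3 and 57.0 and 53.0 in batch 4. Over all nuclei the log2 fold change was 0.11 for Erbb3 and 0.05 for Erbb2, against -0.59 and -0.33 in bulk tissue. Erbb3 was lower in both batches in 10 of the 20 classes where it was tested and higher in both in 4.

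**Figure D4:**
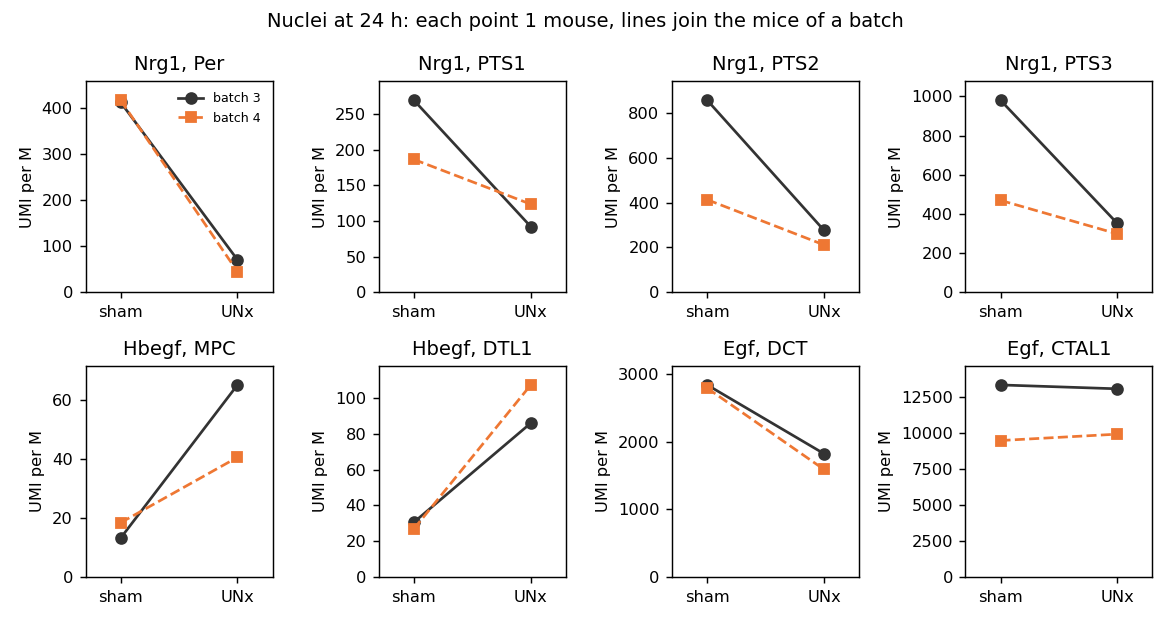
UMI per M of Nrg1, Hbegf and Egf in chosen cell classes of the nuclei at 24 h, 1 point per mouse, with lines that join the sham and UNx mouse of a batch (axes start at 0). Both lines fall for Nrg1 in Per, PTS1, PTS2 and PTS3 and for Egf in DCT, both rise for Hbegf in MPC and DTL1, and the lines for Egf in CTAL1 are nearly flat.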

How the data were processed

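Kidney RNA was measured in 36 bulk libraries and in nuclei of 4 mice. The authors deposited estimated counts per gene, made with Salmon 1.5.0 on GRCm39 after FastQC 0.11.8 for the bulk libraries, and with alevin and Seurat on mm10 for the nuclei, per the submitters' processing notes; how the nuclei were filtered is not given in the sources used here. The authors' deposited annotation gave each nucleus its class. Of the bulk values 34.14% were not whole, and all were rounded. Depth was 14.87 to 24.11 M counts (M is 1000000) per bulk library and 35.45 to 49.56 M UMI per nucleus sample. Doublets were not called again.

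Groups came from the labels. Each bulk time was fitted alone with edgeR 4.0.16 in R 4.3.3 (filterByExpr, TMM, glmQLFit, glmQLFTest), and differences between times were fitted over all 36 libraries. P-values were adjusted by Benjamini-Hochberg over all genes tested. CPM used the TMM library sizes. Nuclear counts were added up within each class of each mouse where all 4 mice had at least 10 such nuclei, then fitted the same way. Scripts were tested on simulated data. Alternatives included DESeq2 1.42.0, limma 3.58.1 voom, other scaling and filters, a profile covariate and leaving out libraries. Mice of a nucleus number shared a labelled batch and their deviations correlated (r = 0.806), so the blocked fit is given beside those results.

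The members and all gene lists were chosen with earlier results of these data known. Named genes were all members; from each pathway list, time and direction, the called gene of lowest p; the 5 genes most like Egf and Egfr across classes, by Pearson correlation of log2(UMI per M + 1) among genes with at least 50 UMI per M in a class; the 2 nuclear member tests of lowest p; and class markers. Promoter windows were found for 7 of the 10 members.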

Additional observations from a re-analysis of the deposited data

Results flagged for a closer look

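In 7 of 54 groups of 6 bulk libraries, 1 library lay far from the other 5 for a member (gap to the nearest over the whole range above 0.625, Dixon's test), where chance flags about 1 in 20 groups. Sham replicate 4 of 24 h was the highest of its group for both Erbb3 (161 CPM, next 115) and Egfr (96.8 CPM, next 73.2). UNx replicate 4 of 24 h had the lowest Egfr, 57.9 CPM against 63.1 for the next. For the low ligands, Tgfa reached 7.45 CPM in UNx replicate 6 of 72 h (next 6.25) and 8.69 CPM in sham replicate 5 of 72 h (next 6.37). Btc reached 7.54 CPM in UNx replicate 2 of 48 h (next 5.34), and Nrg1 reached 14.7 CPM in sham replicate 6 of 48 h (next 10.8).

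For 2 members the effect of nephrectomy differed between times in the edgeR interaction test. The Btc log2 fold change was lower at 48 h than at 24 h by a signed difference of -0.578, and that of Egf was higher at 72 h than at 48 h by 0.356. Neither was called without the 48 h UNx replicates 1 to 5, which leaves 1 UNx library at 48 h. The Btc difference was then -0.64 and that of Egf 0.07.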

How the results depend on the processing

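Over all alternatives to the single-gene results, 770 kept direction and call, 23 gained the call, 55 lost it and 46 changed sign. The count of members called at 24 h went from 2 to 0 with the profile covariate and was 2 to 4 without 1 library. At 48 h it went from 2 to 4 with all 36 libraries in 1 fit, to 0 with the profile covariate, to 0 without UNx replicates 1 to 5, and was 1 to 3 without 1 library. At 72 h it went from 0 to 2 with DESeq2's Wald test or voom and was 0 to 1 without 1 library. The difference called between 24 and 48 h (1) and that between 48 and 72 h (1) fell to 0 with the profile covariate or without those 5 libraries, the latter also with no filter. In nuclei by class, 0 calls became 1 with no filter, 8 with the replicate block and 0 to 2 without 1 mouse. For all nuclei no setting gave a call.

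Bulk replicate numbers did not pair the samples (r = -0.295 to 0.141, 1 of 18 best with its own number). With the replicate block the bulk counts were 2, 3 and 0, the added call being Erbb3 at 48 h (-0.42, edgeR adjusted p = 0.0465).

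With the profile covariate Hbegf at 24 h stood at 0.10, Erbb4 at -0.02, Ccnd1 at 0.18, Spred2 at 0.01 and Timp3 at 0.00; at 48 h Hbegf at -0.15 and Nras at 0.01; at 72 h Egf at -0.01 and Egfr at 0.04; and the Egf difference of 24 and 48 h at 0.25. Without 48 h UNx replicates 1 to 5, Hbegf stood at -0.15, Tgfa at 0.04, Nras at 0.01, the Egf difference at 0.16, and the Erbb2 differences at -0.16 (24 and 48 h) and 0.15 (48 and 72 h). Tgfa at 48 h was 0.00 with DESeq2 size factors, its Wald test or no mitochondrial genes, 0.11 with voom and 0.01 with the block. Voom gave Erbb4 at 24 h -0.01, the block gave the Erbb2 difference of 24 and 72 h 0.00, and the joint fit gave Egfr at 72 h 0.00. Leaving out 1 library gave Erbb4 at 24 h -0.09 to 0.07, Tgfa at 48 h -0.12 to 0.17, and at 72 h Egf -0.02 to 0.07, Hbegf -0.12 to 0.07, Tgfa -0.12 to 0.05, Btc -0.12 to 0.02 and Egfr -0.08 to 0.06. In nuclei it gave Nrg1 in EC2 -1.96 to 0.05, Egf in CTAL1 -0.17 to 0.33 and Btc in CPC -0.30 to 0.62. The cause was not tested. Depth limited Areg, with 20 UMI in all nuclei, and the class tests of Hbegf, some on 6 UMI a mouse.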
